A study of Mus musculus with 10 samples.

Results

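The sequences described here are the 254 8-base sequences (8-mers) that hold the core TGTCG on either strand, of 32896 8-mers measured on protein binding microarrays. The core is the CRE half-site TGACG with the substitution A3T, counted from 1 at the 5′ end. Of the 256 8-mers with the core, 2 also hold the unchanged half-site or the PAR half-site TTACG and were left out. The core was chosen by values of these arrays: the palindrome TGTCGaca stood out in CREB1(A297V) against CREB1 and against CEBPB(V285A) on unmethylated DNA. Values of the members in those comparisons are therefore given as a description, with no test.

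Mouse bZIP DNA-binding domains were bound to 10 arrays of 40330 probes, each with 35 variable bases, and detected in the Cy5 channel. The labels give 5 groups of 2 arrays. All proteins (CREB1, CEBPB(V285A) and CREB1(A297V)) were measured on unmethylated DNA, the mutants also on DNA treated for 3 h with M.SssI, which methylates the cytosine of CG. All domains carried an N-terminal GST tag and were made without cells, from plasmid, with a PURExpress kit; the mutants came from site-directed mutagenesis. Full-length proteins and partners were thus not part of the binding reaction, wild-type CEBPB and CREB1 on methylated DNA were not analysed here, and nothing says that replicate arrays came from separate protein preparations. The p-values then set a difference against the spread between arrays of a group, estimated over all 5 groups together, and that spread may be technical.

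The bZIP domain binds DNA as a dimer of long helices, and the basic region of each monomer reads a half-site in the major groove. CREB1 is known for the cAMP response element TGACGTCA, PAR proteins for TTACGTAA and C/EBP proteins for sites with the half-site TTGCG, all around a central CG. Methylation adds a methyl group to the CG cytosines, in the same groove. The substitutions V285A and A297V exchange valine and alanine in opposite directions, in CEBPB and CREB1 respectively.

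The members on which the results turn are shown here, as the strand that reads the core, with the core in capitals and the other bases of the 8-mer in lower case.
palindrome of the core: TGTCGaca
palindrome with 1 base changed: TGTCGaaa
core followed by the end of the C/EBP site: TGTCGcaa
core followed by TA, after G: gTGTCGta
core followed by TA, after A: aTGTCGta
core followed by TA, then G: TGTCGtag
core before T, after CG: cgTGTCGt
core after TTA: ttaTGTCG
core after ACA: acaTGTCG
core after ACG: acgTGTCG
left out, with the CRE half-site on the other strand: TGTCGtca
left out, with the PAR half-site on the other strand: TGTCGtaa

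Binding to an 8-mer is given as a Z-score: the median log2 signal of the 16 to 38 probes that hold a member, after removal of the local median of the slide, as a distance from the median of all 8-mers on that array in units of their robust spread. Most members were bound little. On unmethylated DNA the median member Z was 0.653 (CREB1), 0.677 (CEBPB(V285A)) and 0.388 (CREB1(A297V)), and with methylation it was 0.454 and 0.705 for the mutants, with the median of all 8-mers at or near 0. A mean Z of at least 3 was reached by 18 members (7.09%) for CREB1, against 2.69% of all 8-mers, and by 17 members (6.69%) for CEBPB(V285A), against 3.5%. For CREB1(A297V) without methylation it was 7 members (2.76%), against 1.68%. On methylated DNA it was 8 members (3.15%) for CEBPB(V285A), near the 3.28% of all 8-mers, and 12 members (4.72%) for CREB1(A297V), against 2.9%. The median member was thus above the middle of the array in each group, and a minority of members carried the higher values. These scores include probes that also hold a CRE, PAR or C/EBP half-site, so they do not show the core alone.

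Other changes of the half-site gave other levels. The 256 8-mers with the unchanged half-site TGACG had a median Z of 6.57 for CREB1. For CEBPB(V285A) it was 6.88 without and 4.35 with methylation, and for CREB1(A297V) 1.59 and 2.28. With A3C (TGCCG, 253 8-mers) the medians lay between -0.572 and -0.297, and 0 of these 8-mers reached a Z of 3 in any group. With A3G (TGGCG, 253 8-mers) they lay between -0.603 and -0.213, and at most 3 reached it. Thymine was thus the base at position 3, other than the adenine of CRE, with medians above 0 in all 5 groups. When the CG of the core was changed as well, G5A (TGTCA, 256 8-mers) gave medians of 0.974 to 2.10, higher than the members in each group, and C4T (TGTTG, 253 8-mers) gave 0.401 to 0.769. On its other strand TGTCA reads as the CRE half-site TGACG with G5A. That list is therefore also one of changed CRE half-sites, and its medians do not show what loss of the CG does to the core. These lists are described and not tested against each other.

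The base after the core went with the level. Among the 46 members with T after it the median Z was 2.07 for CREB1. It was 1.96 without and 1.21 with methylation for CEBPB(V285A), and 1.26 and 1.70 in the case of CREB1(A297V). With G after it (48 members) the medians were 0.0483, -0.0654, -0.227, -0.196 and -0.0313 in the same order. With A (48 members) they were 0.589, 0.710, 0.643, 0.868 and 1.10, and with C (48 members) 0.512, 0.568, 0.473, 0.108 and 0.479. T was the highest of the 4 bases in each group, and A was next in each. Of the 18 members at a Z of at least 3 for CREB1, 13 had T after the core, as had 13 of 17 for CEBPB(V285A) on unmethylated DNA. With T there, the next bases of a probe can complete a CRE or PAR half-site on the other strand. The medians by base include such probes and were not taken again without them. Before the core, A gave the highest median in each group, from 0.966 to 1.46 over 48 members. The 24 members with a second CG had a median of 0.99 for CREB1, against 0.61 for the 230 members with 1. For CEBPB(V285A) it was 1.05 against 0.61 without methylation and 0.65 against 0.42 with it. For CREB1(A297V) the members with a second CG had the lower median, 0.040 against 0.42 without methylation and 0.43 against 0.73 with it.

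The palindrome TGTCGaca was the member with the widest gap between proteins. Its Z on the 2 unmethylated CREB1(A297V) arrays was 8.87 and 12.8, against 3.24 and 4.40 for CREB1 and 2.90 and 2.11 for CEBPB(V285A). With methylation CREB1(A297V) had 11.7 and 14.9, and CEBPB(V285A) had 2.53 and 2.80. The CREB1(A297V) arrays did not overlap those of either other protein. Among all 8-mers it ranked 10 without and 24 with methylation for CREB1(A297V), 538 for CREB1, and 1535 and 1359 in the respective states of CEBPB(V285A). As signal over the array median this was 2.57-fold without and 6.16-fold with methylation for CREB1(A297V), 1.51-fold for CREB1, and 1.42-fold and 1.61-fold in the case of CEBPB(V285A). These folds hold background signal, which lowers them.

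Members with 1 base of the palindrome changed after the core had lower levels for CREB1(A297V), and TGTCGaaa was the nearest. TGTCGaaa stood at 3.83 and 5.22 on unmethylated and 6.33 and 8.06 on methylated DNA for CREB1(A297V), at 2.26 and 1.94 for CREB1, and at 1.55 and 1.07, then 0.943 and 1.45, for CEBPB(V285A). The next such member by this protein's methylated arrays, TGTCGata, had a mean of 2.67 ± 0.21 there, TGTCGact had 2.51 ± 0.14 and TGTCGacg 1.96 ± 0.34 (SD, n = 2). TGTCGcca had 0.959 ± 0.24, TGTCGacc 0.754 ± 0.13, TGTCGaga 0.135 ± 0.012 and TGTCGgca -0.00737 ± 0.069. With the last base of the palindrome dropped and a base added in front, aTGTCGac, cTGTCGac, gTGTCGac and tTGTCGac ranged from 2.05 to 3.58 on methylated and from 1.56 to 1.85 on unmethylated DNA. The remaining single-base variant is one of the pair left out of the members. This is TGTCGtca, whose other strand holds the CRE half-site, and it stood at 5.47 and 7.16 for CREB1(A297V) on unmethylated DNA and at 11.2 and 11.1 on methylated DNA. The other 8-mer left out, TGTCGtaa, with the PAR half-site on its other strand, stood at 12.3 and 17.5, then 16.3 and 22.5, for this protein. It stood at 6.98 and 8.60 for CREB1 and at 9.44 and 8.78, then 10.2 and 9.94, for CEBPB(V285A). Changing the palindrome's CG to CA, which gives TGTCAACA, an 8-mer chosen after its values were seen, gave 2.21 and 2.35, then 2.63 and 3.38, for CREB1(A297V). This 8-mer also holds, on its other strand, the CRE half-site with G5A.

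The 16 probes that hold the palindrome varied among themselves, and the highest and lowest pair for methylated CREB1(A297V) are printed 5′ to 3′ with the palindrome in capitals, to show where it lies.
probe 1: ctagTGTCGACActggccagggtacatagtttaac
probe 2: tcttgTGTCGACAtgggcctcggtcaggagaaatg
probe 3: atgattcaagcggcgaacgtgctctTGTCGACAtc
probe 4: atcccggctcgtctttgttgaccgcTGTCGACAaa
In probe 1 the palindrome starts at base 5, and the mean log2 signal over the local median was 5.86 for methylated and 3.13 for unmethylated CREB1(A297V), against 1.10 for CREB1. In probe 2 it starts at base 6, with 4.39, 2.54 and 0.75. In probes 3 and 4 it starts at base 26, with 0.62 and 0.26 for methylated CREB1(A297V). Across the 16 probes the rank correlation of this signal with the start of the palindrome was -0.733 for methylated and -0.740 for unmethylated CREB1(A297V), and between -0.420 and -0.324 in the other groups. It is a description, over probes that share their arrays. The 9 probes with a start at base 13 or before had a median of 3.30 for methylated CREB1(A297V), and the 7 later ones 1.15. The 19 probes of the CRE palindrome gave -0.644 for CREB1, -0.302 and -0.210 for CEBPB(V285A) without and with methylation, and -0.518 and -0.668 in the case of CREB1(A297V). A G stood before the palindrome in 4 probes, whose median for methylated CREB1(A297V) was 4.11, against 2.19 for the others. In these 4 the palindrome starts at base 12 or before. Those with a start at base 12 had 3.83 and 3.63, and the probes without G that start at bases 10 to 13 had 1.30 to 3.30. These probes are few and differ elsewhere too, and neither position nor flank was tested. Of the 16 probes, 13 hold no CRE, PAR or C/EBP half-site elsewhere, and over those the mean Z was 12.2 and 15.1 for CREB1(A297V) on unmethylated and methylated DNA, and 3.20 to 4.38 in the other groups.

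For CREB1 and CEBPB(V285A) the highest member was gTGTCGta. It stood at 6.02 and 8.73 for CREB1, at 9.22 and 7.32, then 4.81 and 4.77 on methylated DNA, for CEBPB(V285A), and at 5.11 and 9.30, then 8.63 and 9.34, for CREB1(A297V). The ranges of the proteins overlapped on unmethylated DNA, and on methylated DNA both CREB1(A297V) arrays were above both CEBPB(V285A) arrays. aTGTCGta followed, at 4.67 and 5.38 for CREB1, 4.87 and 4.72, then 4.18 and 4.71, for CEBPB(V285A), and 3.37 and 5.11, then 5.75 and 6.57, for CREB1(A297V). TGTCGtat stood at 4.09 and 5.52 for CREB1, 4.82 and 4.56, then 2.73 and 2.92, for CEBPB(V285A), and 3.58 and 4.04, then 4.39 and 5.01, for CREB1(A297V). All are among the 7 members with TA after the core, which share their probes: of 138 probes, 102 hold more than 1 of them. The level of this family also went with the next base on the probe. Where it was A, which completes the PAR half-site on the other strand, the median log2 signal over the local median of 34 probes was 1.21 for CREB1, 1.84 without and 2.56 with methylation for CEBPB(V285A), and 1.84 and 3.72 in the case of CREB1(A297V). Where it was C, G or T (33 to 36 probes each), the medians in the same order of groups were at most 0.67, 0.94, 0.73, 0.52 and 1.11. Without probes that hold a CRE, PAR or C/EBP half-site, gTGTCGta kept mean Z-scores of 6.97 for CREB1, 7.46 and 3.81 for CEBPB(V285A) and 5.41 and 6.89 for CREB1(A297V), over 21 of its 33 probes. The same step took the number of members at a Z of at least 3 from 18 to 14 for CREB1, from 7 to 4 for unmethylated CREB1(A297V) and from 12 to 7 for methylated CREB1(A297V).

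The title of the series sets CEBPB(V285A) beside CREB1, and the first tested comparison was that of these proteins on unmethylated DNA. Few members were called: 2 members (0.787%) were higher for CEBPB(V285A), against 3.67% of all 8-mers, and 1 (0.394%) was lower, against 2.53%. The members' median difference was -0.0473 Z. At an unadjusted p under 0.05 in limma there were 14 higher and 26 lower, with no count over all 8-mers to set beside them. ttaTGTCG stood at 1.70 and 2.43 for CEBPB(V285A) and at 0.518 and 0.780 for CREB1, a difference of 1.41 ± 0.375 (SE, limma, adjusted p = 0.0320). agtTGTCG was 1.16 ± 0.310 higher (adjusted p = 0.0321). tcTGTCGt was the lower, at a mean of 1.08 against 2.35 (adjusted p = 0.0360). The calls at ttaTGTCG and agtTGTCG were lost without any one of the 4 compared arrays or either methylated CREB1(A297V) array, and that at tcTGTCGt without CREB1 replicate 2 or any one of the 4 CEBPB(V285A) arrays (adjusted p up to 0.279). Over all arrays left out the counts ran from 0 to 5 higher and from 0 to 7 lower. On other scales the split was 17 higher and 3 lower (median-centred log2), 1 and 10 (normexp), 0 and 1 (signal over background) and 3 and 0 (the authors' Z-scores). For the palindrome the difference was -1.31, with a 95% interval of -3.74 to 1.10, and for gTGTCGta it was 0.891, with an interval of -1.73 to 3.51, so neither interval shows the proteins to act alike. With normexp the palindrome passed, at -2.61 (adjusted p = 0.0479). The array names carry an identifier that differs between these proteins, so identifier and protein cannot be told apart. Unmethylated arrays also entered the comparisons that drew attention to the core, so the results here and those for methylation, including the interaction, are not independent of that choice. In those, CREB1(A297V) minus CREB1 had a median over the members of -0.269, with 85 members above 0 and 169 below.

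On methylated DNA the mutants were compared on arrays outside the unmethylated comparisons that drew attention to the core. The same mutants were set against each other in that choice, and earlier results of these data were known. The calls here are thus not independent support. CREB1(A297V) was the higher at 34 members (13.4%), against 5.49% of all 8-mers, and CEBPB(V285A) at 5 members (1.97%), against 6.75%. The median difference, CEBPB(V285A) minus CREB1(A297V), was -0.237, against 0.156 for the other 8-mers with a CG, of which 3.33% were called lower and 8.78% higher. At the palindrome the difference was -10.6 ± 1.16 Z (SE, limma, adjusted p = 8.13e-06), and it stayed between -12.2 and -8.99 with any 1 array left out. At TGTCGaaa it was -6.00 ± 0.565 (adjusted p = 1.27e-06). TGTCGtag, at 1.07 and 2.26 against 5.30 and 5.54, had a difference of -3.75 ± 0.656 (adjusted p = 0.00091). These 3 members were called in each fit with an array left out and in 8 other settings (each alternative but the one without probes of other half-sites). The calls at gTGTCGta (a difference of -4.19, adjusted p = 0.0341) and cTGTCGta (-2.66, adjusted p = 0.0346) were each lost without any one of the 4 methylated arrays or either unmethylated CEBPB(V285A) array.

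The calls among the mutants on methylated DNA are given here by flank, a split that was not tested. With A after the core 15 of 48 members were higher for CREB1(A297V), with T 8 of 46, with G 3 of 48 and with C 0 of 48. With the core at the end of the 8-mer it was 8 of 64. The share of all 8-mers was 5.49%. Of the 8 members with AC after the core, the palindrome among them, 5 were called. They share their probes: of 128 probes, 115 hold more than 1 of these 8, so these calls are not separate evidence on the flank. CEBPB(V285A) was the higher at ttaTGTCG, at 3.94 and 3.51 against 1.57 and 1.69, a difference of 2.10 ± 0.375 (adjusted p = 0.00112) that was called with every array left out and in the 8 other settings. tgaTGTCG, at 3.44 and 3.86 against 1.77 and 1.77, was 1.88 ± 0.411 higher (adjusted p = 0.00530), a call lost without the second methylated array of either mutant (adjusted p up to 0.0855). TGTCGcat was the higher as well, at a mean of 2.46 against 0.970 (adjusted p = 0.00229), a call lost without the first methylated CEBPB(V285A) array (adjusted p = 0.0510). The count of 5 was 2 or 3 without 1 of those arrays or without CEBPB(V285A) replicate 1. The count of 34 depended on single arrays: it was 4 without CREB1(A297V) replicate 2, 13 without its replicate 1, and 5 and 9 without CEBPB(V285A) replicates 1 and 2, all methylated. Other scales gave splits of 20 higher and 43 lower (median-centred log2), 5 and 12 (normexp), 2 and 6 (signal over background) and 4 and 13 (the authors' Z-scores). The spots of both methylated CREB1(A297V) arrays lie at other positions than on the remaining arrays (0% at the same place), so layout and protein cannot be told apart here, nor layout and methylation for CREB1(A297V).

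Methylation and the unmethylated state were measured on arrays whose names carry different identifiers, so identifier and methylation cannot be told apart in what follows. For CREB1(A297V), 47 members (18.5%) were higher on methylated DNA, against 10.4% of all 8-mers and 9.43% of the other 8-mers with a CG. Lower were 6 members (2.36%), against 11.1% of all 8-mers and 12% of the others with a CG. The members' median difference was 0.326, and that of the others with a CG 0.00256. TGTCGcaa, at 1.33 and 2.44 without and 3.83 and 3.77 with methylation, was 1.91 ± 0.429 higher (adjusted p = 0.00461), and was called with each array left out and in the 8 other settings. All 35 of its probes hold the C/EBP half-site TTGCG on the other strand. The only other member called in all of these fits was caaTGTCG, from a mean of 0.605 to 2.27 with methylation. That 8-mer does not itself hold the C/EBP half-site. cTGTCGac was 2.02 ± 0.411 higher (adjusted p = 0.00236), also called with each array left out, though not with normexp or signal over background. TGTCGaaa was 2.68 ± 0.565 higher (adjusted p = 0.00308), lost without methylated replicate 2 (adjusted p = 0.0665), and TGTCGtag, at 1.92 and 3.48 against 5.30 and 5.54, was 2.72 ± 0.656 higher (adjusted p = 0.00703), lost without unmethylated replicate 1 or methylated replicate 2. In all, 12 of the 47 were called with every array left out. TGTCGgtt fell by 1.59 (adjusted p = 0.00657), from a mean of 2.27 to 0.679 with methylation, a call lost without methylated replicate 2 (adjusted p = 0.112).

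The size of these changes for CREB1(A297V) moved with the scale, and its unmethylated arrays spanned less signal than any others: the top 8-mer was 2.79 and 2.68 log2 units above the median there, and 4.73 to 6.05 on the other arrays. The palindrome differed by 2.43 ± 1.16 Z (adjusted p = 0.140), which did not pass, with a 95% interval of 0.0145 to 4.85. It was 0.485 without unmethylated replicate 1 and 0.837 without methylated replicate 2, 4.03 without methylated replicate 1, and 4.38 without unmethylated replicate 2, where it passed (adjusted p = 0.00646). It also passed with signal over background, at 3.59 (adjusted p = 0.0326), and in the authors' Z-scores, at 19.9 on their scale (adjusted p = 0.00219). On median-centred log2 values methylated minus unmethylated was 1.26 (adjusted p = 1.04e-07), on quantile-normalized arrays -2.83 Z (adjusted p = 0.00957), and with normexp -1.14 Z (adjusted p = 0.316). Its direction with methylation thus turned with the scaling, while its difference between mutants on methylated DNA did not. The split of called members was 25 higher and 10 lower with normexp and 18 and 0 with signal over background. Leaving out single arrays gave 13 members higher without methylated replicate 2, 26 without methylated replicate 1, 29 without unmethylated replicate 1 and 67 without unmethylated replicate 2, and from 0 to 11 members lower.

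For CEBPB(V285A) methylation went with 20 lower members (7.87%), against 3.73% of all 8-mers but 7.29% of the others with a CG, and with 6 higher members (2.36%), against 3.84% and 1.9%. These shares are near those of other 8-mers with a CG. The median difference was -0.150, against -0.159. The largest called fall was at cgTGTCGt, from 5.48 and 4.97 to 1.07 and 2.50, a difference of -3.44 ± 0.538 (adjusted p = 0.00189). Over its 24 of 34 probes with no other half-site the means were 2.96 and 1.02. tgTGTCGt followed, from 4.93 and 4.05 to 2.07 and 1.97 (-2.47 ± 0.442, adjusted p = 0.00384). ttaTGTCG went the other way, from 1.70 and 2.43 to 3.94 and 3.51 (1.67 ± 0.375, adjusted p = 0.0130), as did TGTCGcaa, from 2.19 and 2.48 to 4.05 and 3.65 (1.51 ± 0.429, adjusted p = 0.0388). The palindrome differed by 0.159, with an interval of -2.26 to 2.58. None of these calls held with every array left out: both counts were 0 without unmethylated replicate 1 and without methylated replicate 1. The lower members numbered 9 without unmethylated replicate 2, 3 without methylated replicate 2 and 10 without either methylated CREB1(A297V) array, with at most 1 higher member in each. Other scales gave splits of 29 higher and 33 lower (median-centred log2), 5 and 6 (normexp), 0 and 5 (signal over background) and 4 and 7 (the authors' Z-scores).

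The methylation differences of the mutants rest on separate arrays, and 4 members were called in opposite directions: TGTCGtag, acaTGTCG, acgTGTCG and ctgTGTCG were lower with methylation for CEBPB(V285A) and higher for CREB1(A297V). They are 20.0% of the 20 members lower for CEBPB(V285A) and 8.51% of the 47 higher for CREB1(A297V). Over all 8-mers the same shares were 2.61% and 0.933%, and over the others with a CG 2.68% and 2.07%. These 4 make up 1.57% of the members, and 0.0973% of all 8-mers and 0.195% of the others with a CG were called in these directions. Each CEBPB(V285A) call among them was lost without that protein's unmethylated or methylated replicate 1. acaTGTCG, for example, went from 3.68 and 3.67 to 1.47 and 1.99 for CEBPB(V285A) and from 1.36 and 0.617 to 2.04 and 2.17 for CREB1(A297V). Higher with methylation for both mutants were TGTCGcaa, aTGTCGag and tctTGTCG, and lower for both was TGTCGgcc. The shares of all 8-mers called alike for both mutants were not counted, so these overlaps have no background to be read against. Tested directly, as an interaction, the methylation difference of CEBPB(V285A) minus that of CREB1(A297V) was below 0 at 17 members (6.69%), against 1.64% of all 8-mers and 3.07% of the others with a CG, and above 0 at 0 members, against 1.42% of all 8-mers. At an unadjusted p under 0.05 limma gave 75 below and 4 above. The share of all 8-mers at that threshold was not counted, so these counts have no background to be read against. The interaction holds the unmethylated difference between the mutants, which was used to choose the core, so its counts are given as values and support nothing further. The median over the members was -0.522. TGTCGtag had a difference of -5.18 ± 0.928 (adjusted p = 0.0119), and acaTGTCG of -3.06 ± 0.551 (adjusted p = 0.0120). The count fell to 0 without CEBPB(V285A) unmethylated replicate 1, CEBPB(V285A) methylated replicate 1 or either methylated CREB1(A297V) array, fell to 3 without CEBPB(V285A) methylated replicate 2 and to 10 without its unmethylated replicate 2, and rose to 48 without CREB1(A297V) unmethylated replicate 2 and to 26 without either CREB1 array.

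The arrays behind these values had median spot signals from 345 to 1857 and median ratios of signal to background from 1.79 to 5.10, the lowest on an unmethylated CREB1(A297V) array. Replicate arrays correlated over the members at 0.898 to 0.973, and the number of arrays limits the precision. Over the 1994 probes with the core and no CRE, PAR or C/EBP half-site, the median log2 signal over the local median was at most 0.07 in any group, and over the 392 probes with such a half-site as well it was 0.24 to 0.96. The members share these probes: 2236 of the 2381 probes behind the 254 members hold more than 1 of them, so the members are not independent of each other.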

How the data were processed

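The deposited tables hold 1 row per spot with median signal and background intensity, per the file headers, on a linear scale. A table of 8-mer Z-scores by the authors, a score whose exact steps are not given in the sources used here, served as an alternative. Here, scores were made from the signals: log2 median signal minus the median over a 15 by 15 spot window, then the median over all probes with an 8-mer (at least 8; merged with its reverse complement), scaled within each array by 1.4826 times the median absolute deviation. Groups were compared with limma 3.58.1 in R 4.3.3 (lmFit, eBayes with a variance trend; 10 arrays, 5 groups, 5 residual degrees of freedom), two-sided, with Benjamini-Hochberg adjustment over the 32896 8-mers, and called at an adjusted p below 0.05. Scripts were tested on simulated data. The members, the comparison cores and the tests were chosen with earlier results of these data known.

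The 8-mers named are the palindrome of the core, its single-base variants, those with a base added before its start, the core before the ends of the C/EBP, CRE and PAR sites, the 5 highest members per group, and up to 5 called members per direction and comparison. Others named were chosen after their values were seen. There were 9 alternatives besides leaving out each array: normexp (offset 50), signal over background, the authors' Z-scores, median-centred log2 values, quantile normalization, no spatial correction, no probes with other half-sites, no variance trend and a replicate block. The probe alternative scores 253 members, since TGTCGcaa has no such probe.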

Additional observations from a re-analysis of the deposited data

Results flagged for a closer look

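For the difference between the methylation differences of the mutants, fitted as an interaction, 17 members (6.69%) were called. The share was 1.64% of all 8-mers and 3.07% of the others with a CG in the same direction. All were below 0 as CEBPB(V285A) minus CREB1(A297V). With methylation 8 of them were also called lower for CEBPB(V285A) and 12 called higher for CREB1(A297V), with 4 called in both. The fit uses the unmethylated arrays of both mutants, whose difference had a part in choosing the core. The count and the adjusted p-values are thus not independent of that choice, and they support nothing further. The 5 largest were TGTCGtag (-5.18), cgTGTCGt (-3.82), acgTGTCG (-3.23), aTGTCGtc (-3.12) and acaTGTCG (-3.06), in Z units and as CEBPB(V285A) minus CREB1(A297V). Their adjusted p lay between 0.0119 and 0.0446 in limma. Each call was lost without CEBPB(V285A) replicate 1 of either state and without either methylated CREB1(A297V) array. With normexp the count of members was 4, and with signal over background 5.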

How the results depend on the processing

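Counts of called members are given here as higher or lower in the order of each comparison. For CEBPB(V285A) minus CREB1, higher members numbered 1 with normexp and with no other half-sites, 0 with signal over background and with no spatial correction, and 17 with median-centred log2, and lower ones 10 with normexp, 0 with the authors' Z-scores and no spatial correction, and 3 with log2. With methylation, higher members for CEBPB(V285A) numbered 0 with signal over background and no spatial correction and 29 with log2, and lower ones 6 with normexp, 5 with signal over background, 7 with the authors' Z-scores, 33 with log2 and 6 with no spatial correction. For CREB1(A297V) higher members numbered 25 with normexp, 18 with signal over background, 90 with log2 and 23 with no spatial correction, and lower ones 10, 0, 6 and 1, and 1 with the authors' Z-scores. Between the mutants on methylated DNA, higher members numbered 2 with signal over background and 20 with log2, and lower ones 12 with normexp, 6 with signal over background, 13 with the authors' Z-scores, 9 with no spatial correction and 19 with no other half-sites. In the interaction, higher members numbered 2 with log2, and lower ones 4 with normexp, 5 with signal over background, 42 with log2 and 3 with no spatial correction. The cause was not tested.

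With single arrays left out the counts ran from 0 to 5 higher and 0 to 7 lower (CEBPB(V285A) minus CREB1), 0 to 9 and 0 to 29 (methylation, CEBPB(V285A)), 13 to 67 and 0 to 11 (methylation, CREB1(A297V)), 2 to 6 and 4 to 43 (between mutants), and 0 to 2 and 0 to 48 (interaction). With the replicate number as a block the counts in the same order were 2 and 3, 6 and 22, 50 and 6, 5 and 34, and 1 and 22. The labels do not say that a number marks a batch, and deviations of same-numbered arrays correlated at -0.213 to 0.333 over the pairs of groups, positive in some and negative in others, so the numbers were not taken to pair the arrays.

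A called difference reversed in 2 cases: aTGTCGta with methylation for CREB1(A297V) under quantile normalization (-0.31, from 1.92) and TGTCGgcc with methylation for CEBPB(V285A) under signal over background (0.126, from -0.973). Of 1965 values of named 8-mers under the other settings, 1465 kept direction and side of the threshold, as did 1818 of 2200 with an array left out. Median signal over background was 1.79 on 1 unmethylated CREB1(A297V) array and at most 2.78 on 4 further arrays, of both mutants, which limits what low Z-scores can show there.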
